A study of Homo sapiens with 6 samples.

Results

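The genes examined here are the 10 that encode the retinoic acid receptors and the proteins that bind or break down retinoic acid: RARA, RARB, RARG, RXRA, RXRB, RXRG, CRABP1, CRABP2, CYP26A1 and CYP26B1. Their rows were taken by gene symbol, and the set was chosen with earlier results of these data known. Of the 10, 8 had a row in the deposited table of 21301 genes, and all 8 passed the filter on low counts that left 19694 genes for testing. RXRG and CYP26A1 had no row, so their expression was not analysed here, and they enter only the search of promoter sequences. The cells were SH-SY5Y, a human neuroblastoma line with neuronal features, and PSF is an RNA-binding protein of the nucleus encoded by SFPQ. Cells grown with fetal bovine serum received siControl or siPSF at 10 nM and RNA was sequenced after 72 h, with 3 libraries per group. The comparison addresses which genes depend on PSF in these cells. It rests on 1 cell line and 1 siRNA against PSF, and a figure legend of the study calls the 3 libraries of a group biological triplicates.

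Retinoic acid is made from retinol, which enters the cell or is stored there, by an oxidation to retinal and a further oxidation to the acid. In the cell, CRABP proteins carry it and CYP26 enzymes break it down. In the nucleus it binds the RAR receptors, which sit on DNA as heterodimers with RXR receptors and switch from corepressors to coactivators when the ligand arrives. Neuroblastoma cells, SH-SY5Y among them, are known to stop dividing and extend neurites when retinoic acid is added, and RARB and CYP26A1 are classical genes that rise with it. No retinoic acid was added in the treatment described for these cells.

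Because RAR-RXR heterodimers bind pairs of a short half-site, the promoter sequences of the members were read from RefSeq (GRCh38.p14) and searched. Each window covered the 250 bases before to 50 bases after a transcription start, and all 10 members had at least 1, with 18 windows in all. The half-sites searched on both strands were the hexamer AGGTCA, the variant AGTTCA that carries a central T, and the counterparts GGGTCA with a first G and GGTTCA with both changes, either singly or as direct repeats spaced by 1, 2 or 5 bases (DR1, DR2 and DR5). These patterns are nested, since every repeat holds 2 half-sites. Of 35116 RefSeq windows, 38.6% held a half-site, whereas 0.131% held a DR1, 0.0399% a DR2 and 0.0883% a DR5. A DR5 was found in 1 of the 4 windows of RARB and in 1 of the 2 windows of CYP26A1, and none of the other member windows held a DR1, DR2 or DR5. Both sites are printed here 5′ to 3′ on the plus strand, because they are the only repeats of the kind in the member windows. Capitals mark the half-sites.
RARB, chr3:25428204-25428232: gggtagGGTTCAccgaaAGTTCActcgca
CYP26A1, chr10:93073797-93073825: taaagaTGAACTttgggTGAACTaattgt
The RARB repeat lies 53 to 37 bases before the start at 25428263. In the GENCODE annotation (release 44) this stretch is exonic in 3 and intronic in 8 of 23 RARB transcripts, the other 12 not reaching it. The CYP26A1 repeat lies 90 to 74 bases before the start at 93073893, reads on the opposite strand and is exonic in 1 of 6 GENCODE transcripts. A match of letters is a description of the sequence and not a measured binding site.

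Each library held between 101540520 and 132420931 deposited counts. Levels are given as CPM, counts scaled to library size with edgeR's TMM factors, and changes are log2 fold changes of siPSF over siControl in edgeR's quasi-likelihood fit. Adjusted p-values follow Benjamini and Hochberg over the 19694 genes. A gene was called at an adjusted p under 0.05. SFPQ, the target of the siRNA, stood at 372, 356 and 401 CPM in siControl and at 209, 193 and 165 CPM in siPSF. All siPSF libraries lay below all siControl libraries, with a log2 fold change of -0.99 (SE 0.10, adjusted p = 9.5e-05 in edgeR's quasi-likelihood test), so that 50.2% of the transcript was left. The noradrenergic markers of neuroblastoma were all tested (14 of 14) and summed to 2339 to 2617 FPKM in siControl and 2094 to 2533 FPKM in siPSF. GATA3 was called higher and DBH and TH were called lower. The median log2 fold change of the 14 was 0.02, with 7 of 14 above 0. TH, the first enzyme of catecholamine synthesis, was at a mean of 0.741 CPM in siControl, while DBH, which makes noradrenaline, was at 1738 CPM. Mesenchymal markers summed to 156 to 175 FPKM in siControl and 146 to 167 FPKM in siPSF, with 2 of 11 tested called lower (FN1, COL3A1), 0 called higher, 7 of 11 above 0 and a median log2 fold change of 0.19. Of 13 markers of other cell types, 6 had a row, and they summed to 3.15 to 4.11 FPKM in siControl and 4.25 to 5.79 FPKM in siPSF. Of these 6, EPCAM was called higher, 5 of 6 lay above 0 and the median log2 fold change was 0.48. The FPKM sums of these lists are not scaled with TMM factors, unlike CPM and the fold changes. With a library left out, DBH and FN1 kept their calls in 6 of 6 fits. GATA3 lost its call in 6 of 6 (adjusted p from 0.06 to 0.099), TH without siControl 2 or 3 (0.1 and 0.061) and EPCAM without siControl 3 (0.075). COL3A1, whose groups overlapped, lost it without siControl 2, siControl 3, siPSF 1 or siPSF 2 (adjusted p from 0.096 to 0.17, edgeR's quasi-likelihood test). Some markers not called with all libraries gained a call in such fits. Of the mesenchymal markers, FOSL1, VIM and SNAI2 were called higher in 1 of 6 fits, and COL1A1 in 2 of 6. Their lowest adjusted p was 0.0002, 0.007, 0.019 and 0.041 in that order (edgeR's quasi-likelihood test). Of the noradrenergic markers, CHGA and GAP43 gained a call in 1 of 6 (0.048 and 0.029 in the same test). The part of these marker changes in the results was not tested.

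Among the 8 retinoid genes, RARB and CRABP2 fell after PSF knockdown and RXRA rose, while RARA, RARG, RXRB, CRABP1 and CYP26B1 did not pass the test. RARB, the receptor gene that is itself induced by retinoic acid, was left at 43.4% of its siControl level. CRABP2, which carries retinoic acid to the nucleus, was left at 55.4%. RXRA, a shared heterodimer partner, was 1.36-fold higher, a call lost in 4 of the 6 fits with a library left out. The 2 lower calls stand beside 8.27% of all tested genes called lower, and the 1 higher call beside 6.65% called higher. The median log2 fold change over all tested genes was 0.01.

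**Figure D1:**
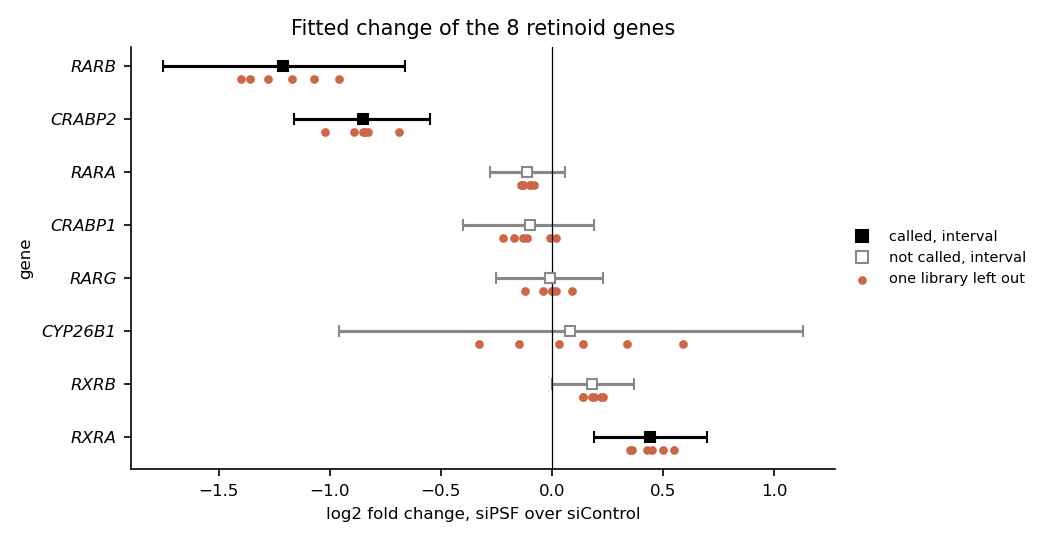
The plot gives the fitted log2 fold change (siPSF over siControl, x axis) of the 8 retinoid genes as squares with 95% intervals, filled where called, and the values with 1 of the 6 libraries left out as points. RARB at -1.21, CRABP2 at -0.85 and RXRA at 0.44 have intervals that leave out 0, and the interval of CYP26B1 is the widest, from -0.96 to 1.13.

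To place the members on a common scale, their levels were compared as FPKM, which divides counts by transcript length and depth. In siControl, CRABP2 was the highest at 117 ± 27.1 FPKM (SD, n = 3), followed by RARA at 27.5 ± 1.23 FPKM, RXRB at 23.4 ± 1.11 FPKM and CRABP1 at 19.7 ± 2.97 FPKM. RARG stood at 13.4 ± 1.69 FPKM, RXRA at 5.03 ± 0.384 FPKM, RARB at 0.545 ± 0.17 FPKM and CYP26B1 at 0.0521 ± 0.0321 FPKM. The retinoic acid receptors were thus carried mainly by RARA and RARG in level, RARB lay far below both, and CYP26B1 was near the limit of detection. Neighbours in this order did not overlap between libraries, except RXRB and CRABP1. In siPSF the order was the same except that RXRB (25.2 ± 1.18 FPKM) came before RARA (24.1 ± 0.59 FPKM), and the libraries of that pair overlapped. CRABP2 remained first at 61.1 ± 2.71 FPKM, and RARB was at 0.218 ± 0.0531 FPKM. In these bulk samples, a lower level can come from fewer cells that express a gene or from less RNA per cell, and the options cannot be told apart.

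**Figure D2:**
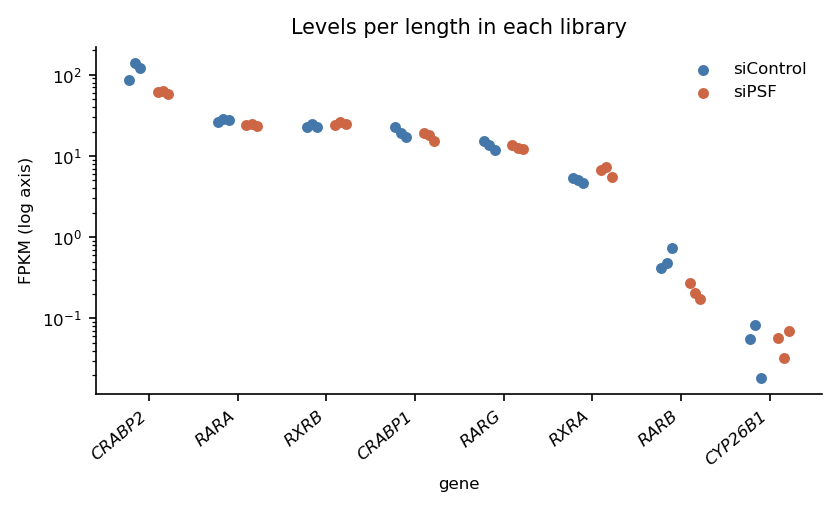
The plot shows FPKM on a log10 axis for each retinoid gene, with a point for each library and siControl beside siPSF. CRABP2 sits at the top (117 FPKM on average in siControl) and CYP26B1 at the bottom (0.0521 FPKM).

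The RAR receptors bind retinoic acid directly. RARA, the receptor found in most tissues, was at 93.9, 103.0 and 95.0 CPM in siControl and at 88.8, 93.1 and 88.6 CPM in siPSF. The siPSF libraries lay just below the siControl libraries, with the closest values 93.1 and 93.9 CPM. The log2 fold change was -0.11 (SE 0.08, 95% interval -0.28 to 0.06, adjusted p = 0.39 in edgeR's quasi-likelihood test), so a fall of more than 0.28 on the log2 scale lies outside the interval. RARA (gene ID 5914) lies on chromosome 17 from 40309180 to 40357643 (GRCh38.p14, as are all gene positions here) and shares 2270 bases with RARA-AS1, which was itself not called (log2 fold change -0.26, adjusted p = 0.28 in edgeR's quasi-likelihood test). Whether strand was used in counting is not given in the sources used here, so reads of this pair cannot be told apart.

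RARB (gene ID 5915) spans 768.6 kb of chromosome 3, from 24829321 to 25597932, and 169.7 kb of it lie between the start next to the DR5 and the end of the gene. Its counts were 172, 221 and 305 in siControl and 117, 80 and 62 in siPSF. In CPM these were 1.41, 1.66 and 2.42 in siControl and 0.985, 0.758 and 0.629 in siPSF. Every siPSF library was below every siControl library, and the siControl libraries spread more widely than the siPSF libraries. The siControl mean of RARB was 1.83 ± 0.526 CPM and the siPSF mean 0.791 ± 0.18 CPM (SD, n = 3). The fitted log2 fold change was -1.21 (SE 0.25, 95% interval -1.75 to -0.66, adjusted p = 0.0077 in edgeR's quasi-likelihood test). Leaving out any 1 library kept the call, with values from -1.40 to -0.96 and adjusted p from 0.0051 to 0.047 in the same test. Among protein-coding genes of 400 kb or more, 199 of 370 were called lower (53.8%), and RARB is 1 of those 199. The part of gene length in its fall was not tested. RARB was below the level that the test on FPKM required, and shares 28 bases with TOP2B, which changed by -0.01 on the log2 scale.

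RARG, a receptor best known from skin, was at 47.5, 42.6 and 35.3 CPM in siControl and at 43.7, 41.2 and 39.9 CPM in siPSF. The siPSF values all fell within the siControl range. The log2 fold change of RARG (gene ID 5916, chromosome 12, 53210569 to 53232209) was -0.01 (SE 0.11, 95% interval -0.25 to 0.23, adjusted p = 0.98 in edgeR's quasi-likelihood test). Within the summed FPKM of the 3 RAR genes, RARA took 62.9%, 67.3% and 68.9% in siControl and 63.6%, 65.8% and 65.7% in siPSF. The difference of the means, 66.4% ± 3.14 against 65.0% ± 1.24 (SD, n = 3), was smaller than the spread in siControl (two-sided exact permutation test, p = 0.5). The design of 3 against 3 libraries cannot give a p below 0.1 in that test, and 2 shares were tested, with a Benjamini-Hochberg adjusted value of 0.5 here.

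The RXR receptors pair with RAR and with other nuclear receptors. RXRA (gene ID 6256, chromosome 9, 134326455 to 134440585, 114.1 kb) was at 32.5, 30.9 and 26.9 CPM in siControl and at 41.7, 46.1 and 34.7 CPM in siPSF. All siPSF libraries were above all siControl libraries, the closest values being 34.7 and 32.5 CPM. The siControl mean of RXRA was 30.1 ± 2.9 CPM and the siPSF mean 40.8 ± 5.75 CPM (SD, n = 3). The fitted log2 fold change was 0.44 (SE 0.12, 95% interval 0.19 to 0.70, adjusted p = 0.025 in edgeR's quasi-likelihood test). The direction held with each library left out, from 0.35 to 0.55, but the call was lost in 4 of 6 fits, at adjusted p = 0.082 without siControl 2, 0.099 without siControl 3, 0.072 without siPSF 1 and 0.089 without siPSF 2 in the same test. With limma on log2(FPKM + 0.5) the change of RXRA was 0.33 on that scale with an adjusted p of 0.081.

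RXRB (gene ID 6257, chromosome 6, 33193588 to 33200853) was at 71.3, 77.3 and 68.0 CPM in siControl and at 77.5, 86.8 and 81.9 CPM in siPSF. The groups did not overlap, though siControl 2 at 77.3 CPM and siPSF 1 at 77.5 CPM almost touched. The log2 fold change was 0.18 (SE 0.09, 95% interval -0.00 to 0.37, adjusted p = 0.17 in edgeR's quasi-likelihood test), so RXRB was not called. In all, 5 of the 8 retinoid genes had groups that did not overlap in CPM (RARA, RARB and CRABP2 lower, RXRA and RXRB higher), beside 34.4% of all tested genes.

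**Figure D3:**
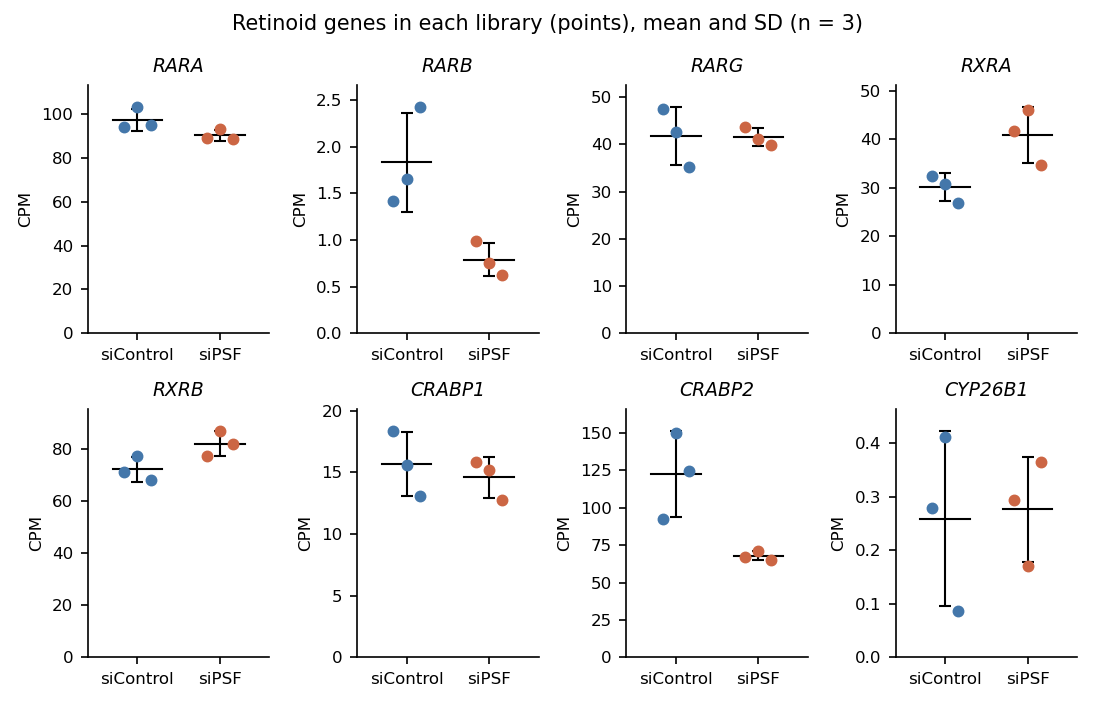
Each panel shows 1 retinoid gene in CPM on an axis that starts at 0, with a point for each library and the mean and SD of each group (n = 3). RARB and CRABP2 sit lower in every siPSF library and RXRA higher, while the siPSF points of RARG lie inside the siControl range.

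CRABP1 and CRABP2 bind retinoic acid in the cytoplasm. CRABP2 hands it to RAR in the nucleus, and CRABP1 is known for holding it in the cytoplasm. CRABP2 (gene ID 1382) lies on the minus strand of chromosome 1 from 156699606 to 156705784 and spans 6.2 kb. Its promoter is shown as the one short member gene that fell. The stretch runs 5′ to 3′ on the strand of the gene and ends before the most upstream GENCODE exon. It holds the only half-site of the CRABP2 window, in capitals. At least 1 half-site was found in 38.6% of RefSeq windows, which also cover 50 bases after the start.
CRABP2, chr1:156705817-156706034: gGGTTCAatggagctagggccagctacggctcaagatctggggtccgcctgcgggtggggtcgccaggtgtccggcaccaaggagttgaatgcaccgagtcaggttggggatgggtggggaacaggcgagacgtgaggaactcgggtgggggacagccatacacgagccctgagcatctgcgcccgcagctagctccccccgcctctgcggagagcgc
The counts of CRABP2 were 11252, 20002 and 15688 in siControl and 7953, 7503 and 6428 in siPSF, or 92.5, 149.9 and 124.6 CPM against 67.0, 71.1 and 65.2 CPM. Every siPSF library was below every siControl library, and siControl spread widely while the siPSF libraries lay close together. The siControl mean of CRABP2 was 122 ± 28.8 CPM and the siPSF mean 67.7 ± 3.01 CPM (SD, n = 3). The fitted log2 fold change was -0.85 (SE 0.14, 95% interval -1.16 to -0.55, adjusted p = 0.0018 in edgeR's quasi-likelihood test). The call held with each library left out, with values from -1.02 to -0.69 and adjusted p from 0.00013 to 0.019 in that test.

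CRABP1 (gene ID 1381, chromosome 15, 78340353 to 78348225) was at 18.3, 15.6 and 13.1 CPM in siControl and at 15.9, 15.2 and 12.7 CPM in siPSF. The groups overlapped. The log2 fold change was -0.10 (SE 0.14, 95% interval -0.40 to 0.19, adjusted p = 0.66 in edgeR's quasi-likelihood test). In FPKM, CRABP1 made up 20.8%, 12.1% and 12.2% of the CRABP total in siControl and 23.9%, 22.1% and 20.6% in siPSF. The library siControl 1, with the lowest CRABP2 of its group, lay within the siPSF range. The difference of the means, 15.0% ± 4.98 against 22.2% ± 1.66 (SD, n = 3), gave p = 0.2 in a two-sided exact permutation test, adjusted to 0.4 over the 2 shares tested, where 0.1 is the smallest p possible.

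CYP26B1, one of the enzymes that clear retinoic acid, was scarcely read (gene ID 56603, chromosome 2, 72129238 to 72147862). Its counts were 34, 55 and 11 in siControl and 35, 18 and 36 in siPSF. In CPM the siPSF libraries, at 0.295, 0.171 and 0.365, lay within the siControl range of 0.0873 to 0.412. The log2 fold change was 0.08 (SE 0.48, 95% interval -0.96 to 1.13, adjusted p = 0.93 in edgeR's quasi-likelihood test). The interval is the widest of the members, with 11 to 55 counts per library and siControl libraries that spread widely.

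Other genes of the pathway were read from 5 lists made by role, with 97 genes listed that are no members and 67 of them tested. Of the 67, 15 were called lower (22.4%, beside 8.27% of all tested genes) and 0 higher, and their median log2 fold change was -0.16 (all tested genes, 0.01). These are counts over genes chosen with earlier results of these data known, and no test of the lists was made. Of the 15 genes tested for retinol and retinal handling, 2 fell, STRA6 and BCO2, with a list median of -0.03. STRA6, the cell-surface receptor that takes up retinol, was at 231, 247 and 223 CPM in siControl and at 143, 144 and 99.0 CPM in siPSF. The groups were well apart, with 54.9% of the level left and a log2 fold change of -0.86 (SE 0.13, adjusted p = 0.001 in edgeR's quasi-likelihood test). BCO2, a carotenoid-cleaving enzyme, was under 1 CPM in all libraries and fell by 1.49 on the log2 scale (adjusted p = 0.0038 in edgeR's quasi-likelihood test). STRA6 spans 32.8 kb and BCO2 43.4 kb. The retinol dehydrogenase RDH10 was not called, at means of 3.74 CPM in siControl and 3.03 CPM in siPSF.

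Of the genes for retinoic acid synthesis and other handling, 4 of 6 were tested and 0 were called in either direction, with a median of -0.25. ALDH1A3, an enzyme that makes retinoic acid, was at means of 19.3 CPM in siControl and 15.1 CPM in siPSF (log2 fold change -0.35, adjusted p = 0.14 in edgeR's quasi-likelihood test). ALDH1A2, which carries out the same step, was at 1.45 and 1.31 CPM. FABP5, which carries retinoic acid to another nuclear receptor, was at 16.3 and 17.1 CPM.

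All 18 RAR and RXR cofactors were tested, 5 were called lower and 0 higher, and the median was -0.20. The coactivator NCOA3 (155.0 kb) was at 30.5, 34.1 and 39.1 CPM in siControl and at 22.5, 20.6 and 20.7 CPM in siPSF, without overlap, and changed by -0.70 (SE 0.11, adjusted p = 0.0013 in edgeR's quasi-likelihood test). CREBBP, a histone acetyltransferase that RAR recruits, was at 179.5, 185 and 195 CPM in siControl and at 135, 145 and 143 CPM in siPSF, a change of -0.40 (SE 0.08, adjusted p = 0.0056 in edgeR's quasi-likelihood test). ZNF423 (371.8 kb), a zinc finger protein known as a cofactor of RAR and RXR, changed by -0.34 (SE 0.08, adjusted p = 0.016 in edgeR's quasi-likelihood test), a call lost without siControl 2 (adjusted p = 0.07) and without siPSF 1 (adjusted p = 0.084). The other called cofactors were EP300 (87.5 kb) and MED1 (47.0 kb), and CREBBP spans 155.7 kb. With a library left out, EP300 lost its call without siControl 2, siControl 3, siPSF 1 or siPSF 3, with adjusted p from 0.054 to 0.097, and MED1 without siControl 3 or any siPSF library, with adjusted p from 0.062 to 0.096 (edgeR's quasi-likelihood test). The corepressor NCOR1 was not called, at means of 149 CPM in siControl and 129.6 CPM in siPSF.

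Of the nuclear receptors that pair with RXR or bind related elements, 15 of 19 were tested, with 4 called lower, 0 called higher and a median of -0.05. RORB (195.8 kb), an orphan receptor of the nervous system, was at 34.4, 29.4 and 37.2 CPM in siControl and at 12.1, 11.0 and 8.23 CPM in siPSF. Its siPSF libraries lay far below the siControl libraries, with 31.1% left and a log2 fold change of -1.69 (SE 0.14, adjusted p = 4.5e-05 in edgeR's quasi-likelihood test). THRB (378.6 kb), a thyroid hormone receptor, was at 2.24, 1.52 and 2.54 CPM in siControl and at 1.20, 1.13 and 1.12 CPM in siPSF, a change of -0.87 (SE 0.21, adjusted p = 0.018 in edgeR's quasi-likelihood test), a call lost without siControl 3 (adjusted p = 0.083). NR2F1, a COUP transcription factor that binds direct repeats, changed by -0.44 (SE 0.12, adjusted p = 0.032 in edgeR's quasi-likelihood test), a call lost without siControl 2, siControl 3, siPSF 1 or siPSF 2, with adjusted p from 0.1 to 0.11. The remaining call, PPARD, a fatty acid receptor, held only without siControl 3 (adjusted p = 0.046) among the fits of edgeR's quasi-likelihood test with a library left out. NR2F1 spans 11.4 kb and PPARD 85.6 kb. The thyroid hormone receptor THRA was at means of 55.4 and 59.4 CPM and was not called.

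Among genes known to rise with retinoic acid in one cell type or another, 19 of 30 were tested, with 5 called lower and 0 called higher, a median of -0.18 and 6 of the 19 above 0. Besides STRA6, the called genes included RET, NTRK2 and CD38. RET, the receptor tyrosine kinase for GDNF family ligands (53.3 kb), was at 219, 289.8 and 294 CPM in siControl and at 138, 146 and 79.4 CPM in siPSF. The groups were apart, siPSF 3 being the lowest, and the log2 fold change was -1.15 (SE 0.19, adjusted p = 0.002 in edgeR's quasi-likelihood test). NTRK2, the receptor for BDNF (358.5 kb), was at 5.70, 4.53 and 4.80 CPM in siControl and at 2.95, 2.07 and 1.66 CPM in siPSF, a change of -1.16 (SE 0.20, adjusted p = 0.0026 in edgeR's quasi-likelihood test). GPRC5A, an orphan G protein-coupled receptor known for its induction by retinoic acid, was at 0.559, 0.607 and 0.286 CPM in siControl and at 0.951, 1.08 and 0.659 CPM in siPSF. All its siPSF libraries lay above all siControl libraries, but the log2 fold change of 0.89 (SE 0.31) was not called (adjusted p = 0.074 in edgeR's quasi-likelihood test). HOXD4, MEIS1 and MEIS2, developmental transcription factors, were not called, with log2 fold changes of -0.02, -0.03 and -0.06. RARRES1, named for its induction by retinoid, was at means of 1.70 and 1.77 CPM. STRA6, RET and NTRK2 had no DR1, DR2 or DR5 in their RefSeq promoter windows, and few windows of any gene do (0.131%, 0.0399% and 0.0883%). A half-site was in 2 of 5 windows of STRA6, 0 of 2 of RET and 2 of 4 of NTRK2, beside 38.6% of all windows.

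**Figure D4:**
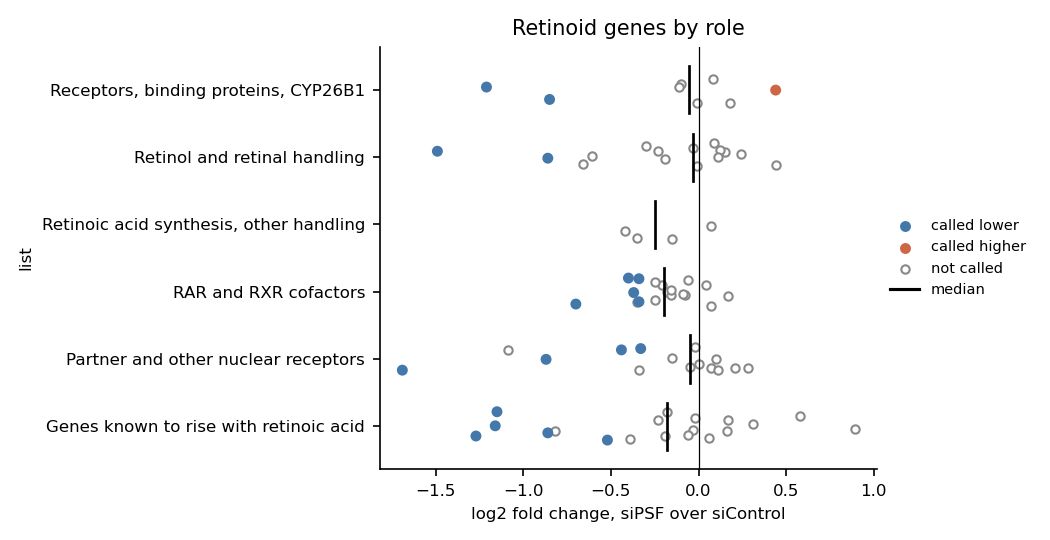
The plot gives the log2 fold change (siPSF over siControl) of every tested gene of the members and of the 5 pathway lists, a point per gene, with filled points called and a bar at the list median. All called genes outside the members lie on the lower side in each list that has any, and RORB at -1.69 is the lowest.

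**Figure D5:**
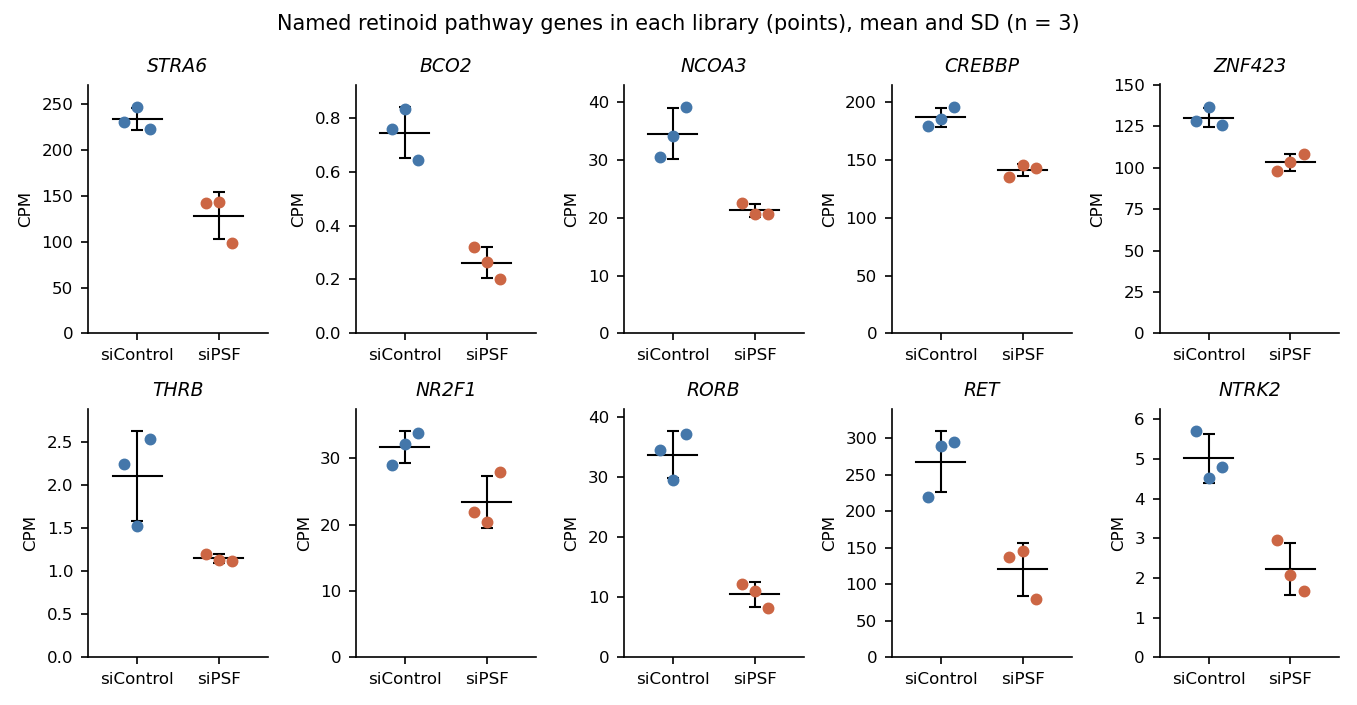
Each panel shows 1 of the 10 pathway genes named by rule in CPM, from 0 upwards, with a point per library and the mean and SD of the group (n = 3). In all 10 panels the siPSF points lie below the siControl points. The rule took only called genes, and 0 pathway genes were called higher, so the shared direction follows from the choice.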

How the data were processed

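RNA was sequenced from SH-SY5Y cells, 3 libraries with siControl and 3 with siPSF, grouped by treatment label. The authors deposited read counts per gene, without normalization, and FPKM values, which divide counts by exon length and mapped reads. The submitters' processing notes name Trimmomatic, HISAT2 2.1.0, StringTie 2.1.3b and GRCh38 with a stranded kit, whereas the study's methods describe Bowtie 2, TopHat, hg38, RefSeq and a kit whose name states no strand, so the mapper, and with it the treatment of reads from overlapping genes, is uncertain. The lowest count in the table is 1 and 0 rows hold a count of 0. A gene without a read in even 1 library therefore has no row and was not analysed here. RefSeq gave gene positions and promoters, and GENCODE release 44 gave exons.

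Counts were filtered with filterByExpr (19694 genes left), normalized by TMM (factors 0.964 to 1.053) and tested with edgeR 4.0.16 in R 4.3.3, without a replicate block, at a Benjamini-Hochberg adjusted p under 0.05. Totals of 101540520 to 132420931 counts and a biological coefficient of variation of 12.6% set the precision. Replicate libraries differed by a chi-square of at least 20.8 per degree of freedom, so none was a copy of another. Shares were compared by exact permutation with scipy 1.17.1. Alternatives were each library left out, a replicate block, DESeq2 1.42.0 size factors and Wald test (no adjusted p for 764 genes), no filter, an adjusted p under 0.10, and limma 3.58.1 on log2(FPKM + 0.5) for genes with a mean of at least 0.5 FPKM, whose fold changes understate low genes.

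The members and gene lists were chosen with earlier results of these data known. Members were all named, and from each list the 3 genes with the smallest p among those called with a mean of at least 1 CPM in either group, or any called gene where a list had fewer. Other genes were named after their values were seen. Some genes of the lists are not reported here by name.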

Additional observations from a re-analysis of the deposited data

How the results depend on the processing

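The falls of RARB and CRABP2 kept their direction and call under every alternative that could be computed for them, from -1.40 to -0.96 for RARB over 11 alternatives and from -1.02 to -0.69 for CRABP2 over 12. RARB was not in the limma fit on FPKM, which therefore called 1 member lower (2 in the test reported) and 0 members higher (1 reported), since RXRA missed the threshold there. With a library left out, 0 to 1 members were called higher, and RXRA lost its call in 4 of 6 such fits while its log2 fold change stayed between 0.33 and 0.55 over all 12 alternatives. RARA, RARG, RXRB, CRABP1 and CYP26B1 gained a call in none of their alternatives.

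Over all genes, leaving out a library gave 928 to 1735 genes called lower (1628 reported) and 572 to 1405 called higher (1310 reported). The lower calls were 928 without siControl 2 and 1022 without siControl 3, and the higher calls were 572 without siControl 2, 732 without siControl 3 and 845 without siPSF 1. The limma fit on FPKM called 736 genes higher, and an adjusted p under 0.10 called 2049 higher. With a library left out, the calls on the lower side were 0 to 1 for retinoic acid synthesis (1 without siPSF 3), 2 to 6 for the cofactors (2 without siPSF 1, 3 without siControl 2, siControl 3 or siPSF 3) and 2 to 3 for the partner receptors (lowest without siControl 2, siControl 3 or siPSF 2).

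With a replicate block the log2 fold change was -1.19 for RARB (adjusted p = 0.030 in edgeR's quasi-likelihood test), -0.83 for CRABP2 and 0.44 for RXRA, and no member's call changed. The replicate numbers share no stated culture or day, and same-numbered libraries correlated at -0.02, 0.06 and 0.06 in their deviations from the group means, so the numbers were not taken to pair the samples. CYP26B1 had 11 to 55 counts per library and the largest standard error of the members, and depth and the spread between libraries were not separated.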
